A study of Mus musculus with 10 samples.

Results

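Chemokines and their receptors were followed in 10 mouse tumors that had been profiled on Agilent mouse expression arrays. The members were the genes whose name on the array was Ccl, Cxcl, Cx3cl or Xcl, or Ccr, Cxcr, Cx3cr or Xcr, with a number and at most one letter. These were 50 genes of 27962 gene names on the array, made up of 20 CC ligands, 13 CXC ligands, Cx3cl1 and Xcl1, and 15 receptors. They were covered by 66 probes, and the probe with the brightest tumor signal stood for each gene. Of the 50 genes, 44 kept their name when the probe's accession was looked up in RefSeq. Cxcl4 is now called Pf4, Cxcl7 is now Ppbp and Ccl27 is now Ccl27a, and the accessions for Ccl5, Ccr10 and Cxcl11 had no match.

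The series compared sarcomatoid (spindle cell) carcinoma with adenocarcinoma, 5 tumors of each. The sarcomatoid group held mammary tumors 323, 307 and 594 and 2 lung tumors, named lung 323 and lung 307, which grew after cell lines from the mammary tumors of the same number had been injected into the tail vein. The group therefore rested on 3 tumors of origin. Per the study's methods these were a Pik3caH1047R;Trp53R270H;MMTV-Cre tumor, a Pik3caH1047R;MMTV-Cre tumor with a spontaneous Trp53 R245H mutation and a Trp53R270H;MMTV-Cre tumor, and the labels did not say which number was which. The adenocarcinomas 105, 131, 470, 17 and 85 came from Pik3caH1047R;Trp53R270H;MMTV-Cre mice, and no lung tumor of this type was on an array. All mammary tumors arose in mice with MMTV-Cre, which drives recombination mainly in the mammary epithelium, the lung tumors grew in injected host mice, and the age of the mice was not given in the sources used here. Values are log2 ratios of tumor over a common reference RNA, so that a ratio compares a gene between tumors and not with another gene. The dye label named Cy3 for the tumors, but the green channel varied less between arrays than the red channel (SD of 0.74 against 0.98 log2 units), and red was read as the tumor. With the dye label taken as written, the sign of every difference below would turn. The choice of probes and the calls above background in the tumor channel would then describe the reference.

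Chemokines are small secreted proteins that bind G protein-coupled receptors on white blood cells and draw these cells into tissue. The CC ligands of the monocyte chemoattractant group (Ccl2, Ccl7, Ccl12) act on Ccr2 and bring monocytes out of the blood, Cxcl9 to Cxcl11 act on Cxcr3 of activated T cells, Cxcl1, Cxcl2 and Cxcl5 draw neutrophils, and Ccl19 and Ccl21 guide Ccr7-bearing dendritic cells and T cells to lymph nodes. In mammary tumors, ligands can come from the carcinoma cells as well as from stromal and myeloid cells, whereas most of the receptors sit on infiltrating cells. All tumors were measured as bulk tissue, in which fewer cells of a type and less RNA per cell cannot be told apart.

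Between 34 and 49 of the 50 genes were well above background in the tumor channel of an array, with the fewest in adenocarcinoma 85 and the most in adenocarcinoma 105, and no member was saturated. The tumor signal was above background on all 10 arrays for 30 genes, on 5 to 9 arrays for 15 and on fewer for 5 (Ccl1, Ccl22, Ccr4, Ccr8 and Ccr10). Ccl22 was well above background on no array. The arrays had been scanned with 3 scan protocols, and adenocarcinoma 470 sat apart from its group, with epithelial markers near those of the lung tumors. Its list mean over 10 epithelial genes was -1.42, against 3.06 to 3.46 in the other 4 adenocarcinomas, 0.997 to 1.67 in the mammary sarcomatoid tumors and -2.27 to -1.61 in the lung tumors. Counts and values below are therefore also given without this tumor.

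**Figure D1:**
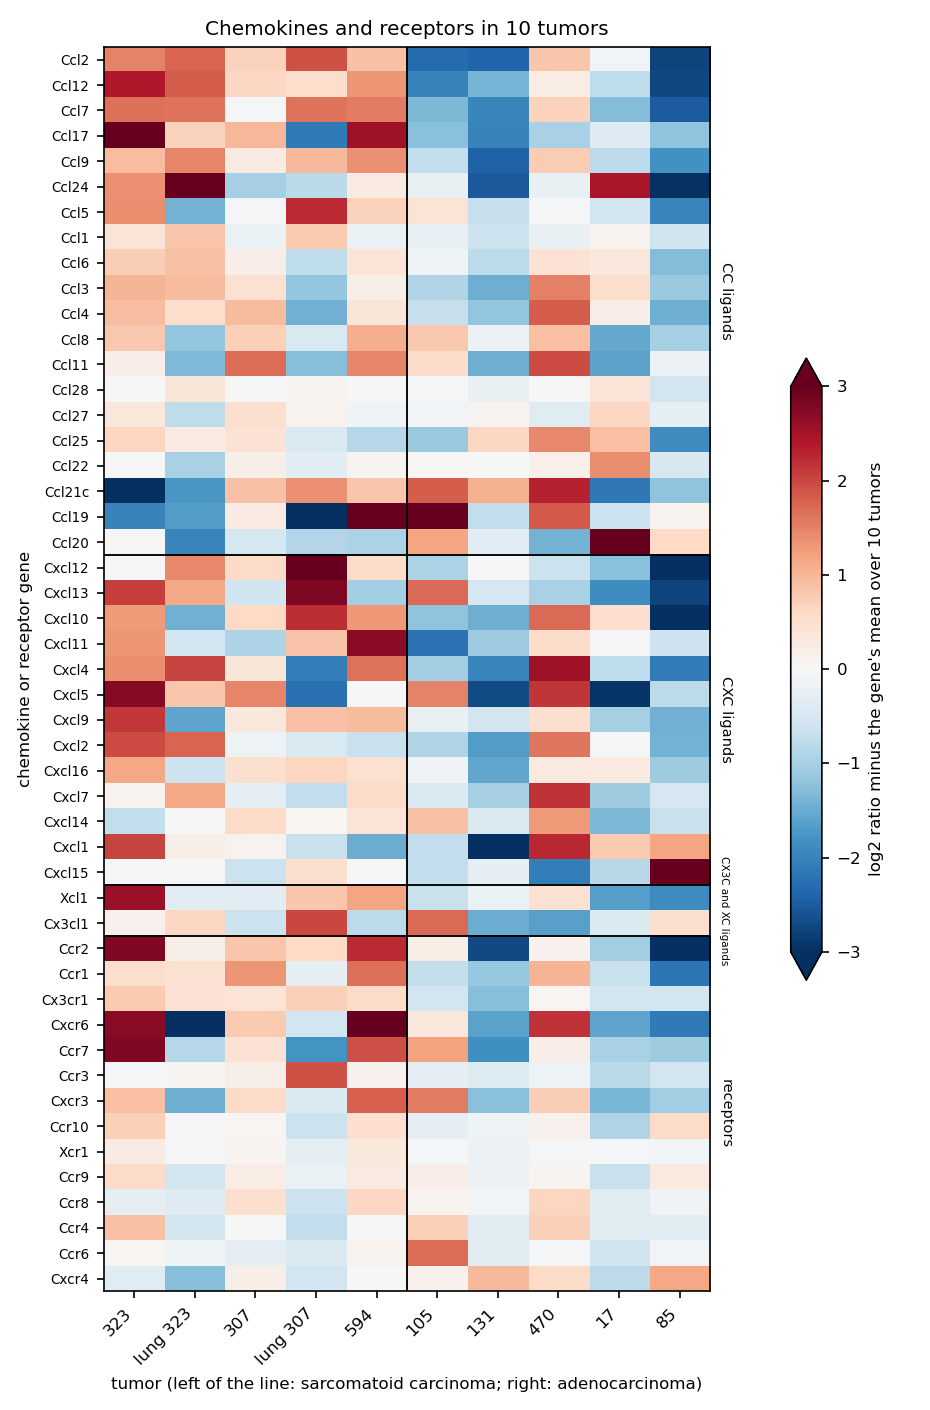
Log2 ratio of the chemokine and receptor genes described here (rows, grouped by family) in each of the 10 tumors (columns), as the difference from that gene's mean over all tumors, with red above and blue below the mean and colours that stop at 3 in either direction. The upper rows of the CC ligands and of the receptors are red in most sarcomatoid tumors and blue in adenocarcinomas 131 and 85, with adenocarcinoma 470 closer to the sarcomatoid tumors for many genes.

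Promoter sequence was at hand for 37 of the 50 genes in RefSeq (GRCm38.p6). Shown are the 250 bases before the start of 6 genes that were higher in the sarcomatoid tumors and whose promoter held one of 2 searched motifs, the kappaB consensus (bound by NF-kappaB, which many inflammatory genes respond to) or GAGGAA (the core of sites for the myeloid factor PU.1), searched on both strands. Capitals mark the motif bases.
Ccl12 (chr11:82101595-82101844, plus strand): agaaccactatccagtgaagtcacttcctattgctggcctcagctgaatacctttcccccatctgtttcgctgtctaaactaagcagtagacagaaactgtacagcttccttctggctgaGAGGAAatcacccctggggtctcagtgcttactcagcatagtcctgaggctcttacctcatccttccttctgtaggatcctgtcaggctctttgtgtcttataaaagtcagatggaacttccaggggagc
Ccl9 (chr11:83578637-83578886, minus strand): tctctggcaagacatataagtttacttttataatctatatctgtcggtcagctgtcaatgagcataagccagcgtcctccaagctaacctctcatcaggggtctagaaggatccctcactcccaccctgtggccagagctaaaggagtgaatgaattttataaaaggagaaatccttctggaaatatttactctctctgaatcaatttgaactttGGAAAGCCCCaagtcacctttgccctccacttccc
Ccr1 (chr9:123968693-123968942, minus strand): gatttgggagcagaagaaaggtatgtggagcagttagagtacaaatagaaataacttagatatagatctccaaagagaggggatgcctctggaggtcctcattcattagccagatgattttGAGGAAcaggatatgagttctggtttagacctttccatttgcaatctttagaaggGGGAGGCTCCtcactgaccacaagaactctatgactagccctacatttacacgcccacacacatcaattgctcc
Ccr3 (chr9:124021721-124021970, plus strand): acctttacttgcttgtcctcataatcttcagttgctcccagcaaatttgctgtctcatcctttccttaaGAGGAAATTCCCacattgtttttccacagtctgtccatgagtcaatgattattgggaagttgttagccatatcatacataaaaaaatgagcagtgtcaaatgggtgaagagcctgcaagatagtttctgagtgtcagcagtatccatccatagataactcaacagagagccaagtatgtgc
Ccl17 (chr8:94810203-94810452, plus strand): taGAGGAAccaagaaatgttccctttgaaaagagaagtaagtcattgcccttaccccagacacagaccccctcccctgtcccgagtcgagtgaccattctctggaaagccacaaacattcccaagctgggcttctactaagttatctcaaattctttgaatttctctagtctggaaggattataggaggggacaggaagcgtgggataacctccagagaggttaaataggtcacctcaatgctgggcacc
Ccl1 (chr11:82179813-82180062, minus strand): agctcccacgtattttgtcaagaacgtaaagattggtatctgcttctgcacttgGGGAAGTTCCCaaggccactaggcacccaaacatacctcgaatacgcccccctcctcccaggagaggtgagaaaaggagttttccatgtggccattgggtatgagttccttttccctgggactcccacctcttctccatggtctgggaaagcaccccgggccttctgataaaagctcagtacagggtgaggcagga
In Ccl12 and Ccl17 the capitals are GAGGAA, in Ccl9 and Ccl1 they are kappaB matches, in Ccr1 both motifs are present, and in Ccr3 the motifs overlap. The windows of Ccr2, Cx3cr1, Cxcl12 and Xcl1 held neither motif, and none is given for Ccl2 and Ccl7. GAGGAA was also in the windows of Ccl8 and Cxcr3, which differed by only 0.39 ± 0.565 and 0.55 ± 0.70 (SE) between the tumor types. Over all promoters of this length, 7.25% held a kappaB match and 23.3% held GAGGAA, and of the 41 promoters of the members (some genes have more than 1) these were 22.0% and 31.7%. The sequence TATAAA was in 12.4% of all promoters and 26.8% of those of the members, and TTCNNNGAA, a core of STAT sites, in 7.02% and 7.32%. A match only states that the letters are present.

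The first comparison asked how the sarcomatoid carcinomas differed from the adenocarcinomas. Ccl2, Ccl12 and Ccl7, which attract monocytes, their receptor Ccr2 and the stromal chemokine Cxcl12 differed most, each by 5.90-fold to 6.43-fold in the group means. In limma, however, none of the 50 members, and none of the 40196 probes, differed at an adjusted p below 0.05. The lowest adjusted p of a member was 0.330. At an unadjusted p below 0.05, 12 of the 50 members were higher in sarcomatoid carcinoma, where 4.98% of all probes were, and 0 were lower, where 4.25% of all probes were. Of the 50 members, 41 had a higher mean in the sarcomatoid tumors, against 49.8% of all probes. The median difference of the members was 0.58 on the log2 scale and that of all probes was -0.0017. For 3 members (Ccl12, Cx3cr1 and Ccr3) every sarcomatoid tumor was above every adenocarcinoma, and 0.866% of all probes were separated in this direction. Separate tumors were the replicates, but the 2 lung tumors derived from tumors of the same group, so that p-values measure the spread between these 10 arrays.

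**Figure D2:**
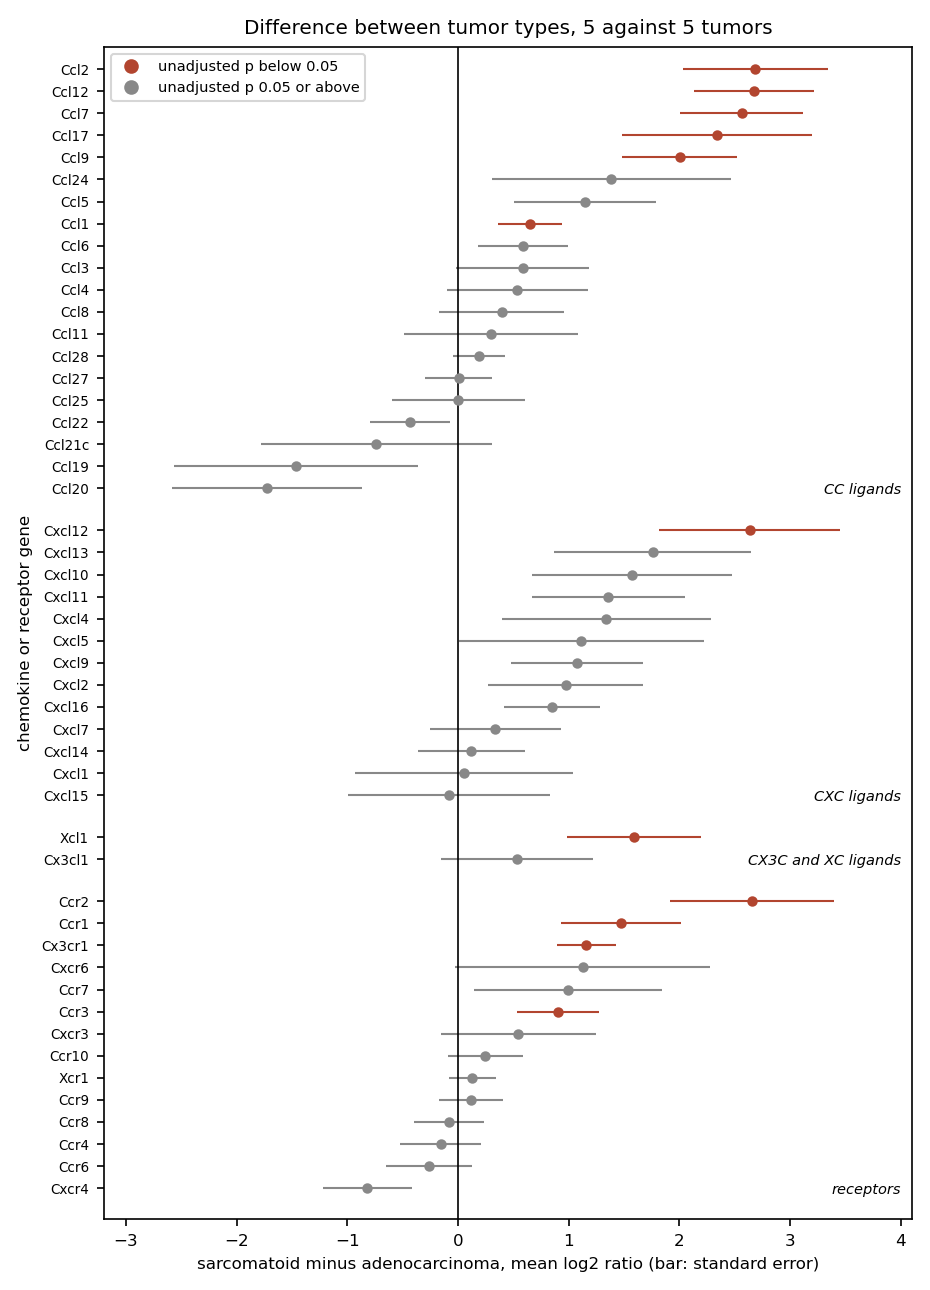
Difference between the mean log2 ratio of 5 sarcomatoid carcinomas and 5 adenocarcinomas for the genes described here, grouped by family, with bars of 1 standard error from limma and red for an unadjusted p below 0.05. The 12 red genes all lie to the right of 0, from 0.65 for Ccl1 to 2.69 for Ccl2, and the lowest gene is Ccl20 at -1.73.

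Ccl2, the main monocyte attractant, was measured by a probe on chromosome 11 (mm7, 82118723 to 82118782). Its log2 ratio was 1.46 in tumor 323, 1.72 in lung 323, 0.67 in tumor 307, 1.89 in lung 307 and 0.84 in tumor 594, and -2.32 in adenocarcinoma 105, -2.43 in 131, 0.82 in 470, -0.12 in 17 and -2.80 in 85. All sarcomatoid tumors were above 0, and only adenocarcinoma 470 reached into their range. The difference was 2.69 ± 0.65 (SE, limma, adjusted p = 0.330, exact permutation test two-sided p = 0.0159). With 5 against 5 tumors there are 252 ways to place the labels, and the smallest p this test can give is 0.00794.

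Ccl7, which acts on Ccr1, Ccr2 and Ccr3, lies next to Ccl2 (82128729 to 82128788). It read 2.01, 1.98, 0.30, 1.96 and 1.88 in tumors 323, lung 323, 307, lung 307 and 594, and -0.999, -1.62, 1.04, -0.97 and -2.14 in adenocarcinomas 105, 131, 470, 17 and 85. Tumor 307 stood apart from the other 4 sarcomatoid tumors and was below adenocarcinoma 470. The difference was 2.56 ± 0.56 (SE, adjusted p = 0.330 in limma), and a second Ccl7 probe gave 2.50. Ccl12, the mouse paralog of Ccl2, was on the same stretch (82184783 to 82184842). Its log2 ratio was 6.78, 6.18, 5.01, 4.90 and 5.70 in the sarcomatoid tumors, in the same order, and 2.37, 2.97, 4.61, 3.61 and 1.65 in the adenocarcinomas. The groups did not overlap, and the difference was 2.67 ± 0.54 (SE, limma adjusted p = 0.330, exact permutation p = 0.00794).

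Ccr2, the receptor of these 3 ligands on monocytes, was measured on chromosome 9 (mm7, 123827135 to 123827194). It read 8.73, 6.13, 6.78, 6.55 and 8.18 in the sarcomatoid tumors and 6.16, 3.23, 6.08, 4.91 and 2.71 in the adenocarcinomas. The lowest sarcomatoid tumor, lung 323, was just below adenocarcinoma 105. The difference was 2.65 ± 0.74 (SE, adjusted p = 0.347 in limma), and a second Ccr2 probe, on which the groups did not overlap, gave 2.68. The reference RNA was well above background for the first probe on 1 of 10 arrays, so that the ratio itself rests on a dim reference.

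Of Ccl3, Ccl4, Ccl5, Ccl6 and Ccl9, CC ligands that lie together on chromosome 11, Ccl9 differed most. Ccl9, a macrophage product that acts on Ccr1, read 2.86, 3.40, 2.18, 2.90 and 3.30 in the sarcomatoid tumors and 1.20, -0.50, 2.69, 1.14 and 0.10 in the adenocarcinomas. Only adenocarcinoma 470 was within the sarcomatoid range, and the difference was 2.001 ± 0.52 (SE, limma adjusted p = 0.330). Its close relative Ccl6 ranged from 5.04 to 6.67 in the sarcomatoid tumors and from 4.49 to 6.23 in the adenocarcinomas. Ccl3 and Ccl4, which are made by activated macrophages and act on Ccr1 among other receptors, differed by 0.58 ± 0.60 and 0.54 ± 0.64 (SE). Ccl5, a ligand made by T cells and other cells, differed by 1.15 ± 0.64 (SE, exact permutation p = 0.159), with the highest value in lung 307 (1.56) and a low one in lung 323 (-2.10).

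Ccr1, a receptor of monocytes and neutrophils, was higher by 1.47 ± 0.54 (SE, limma adjusted p = 0.446), with 0.61 to 2.55 in the sarcomatoid tumors and -1.27 to 1.91 in the adenocarcinomas. It was above background on 6 of 10 arrays and its reference on none, and in the alternative that started from the scanner signals the difference was 0.43. Ccr3, the receptor of eosinophils, was also above background on 6 of 10 arrays and differed by 0.90 ± 0.37 (SE). It read -0.45, -0.33, -0.21, 1.52 and -0.27 in the sarcomatoid tumors and -0.70, -0.82, -0.54, -1.21 and -0.98 in the adenocarcinomas. These groups did not overlap, but the difference was 0.54 without lung 307 and 0.27 from the scanner signals, where the unadjusted p was above 0.05, and the other Ccr3 probe gave 0.49 with overlapping groups. Ccl1, a ligand of Ccr8, was above background on 3 arrays only, and its difference was 0.65 ± 0.29 (SE) in the deposited values and 0.19 from the scanner signals.

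Cx3cr1, the fractalkine receptor of monocytes, macrophages and NK cells, was measured on chromosome 9 (mm7, 119745795 to 119745854). Its log2 ratio was 4.43, 4.06, 4.053, 4.35 and 4.20 in the sarcomatoid tumors, the narrowest spread among the 12 members (SD 0.17, n = 5), and 3.06, 2.37, 3.70, 3.07 and 3.10 in the adenocarcinomas. Every sarcomatoid tumor was above every adenocarcinoma, by 1.16 ± 0.27 in the means (SE, limma adjusted p = 0.330, exact permutation p = 0.00794). On a dimmer Cx3cr1 probe the difference was 0.91 and the groups overlapped, with adenocarcinoma 17 at 1.43 and tumors 323, 307 and 594 at 0.98, 0.77 and 1.23. Its ligand Cx3cl1, a membrane-bound chemokine of endothelium and epithelium, ranged from -1.68 to 1.11 in the sarcomatoid tumors and from -2.52 to 0.81 in the adenocarcinomas. The difference for Cx3cl1 was 0.53 ± 0.69 (SE) on the brighter probe and -0.05 on the other.

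**Figure D3:**
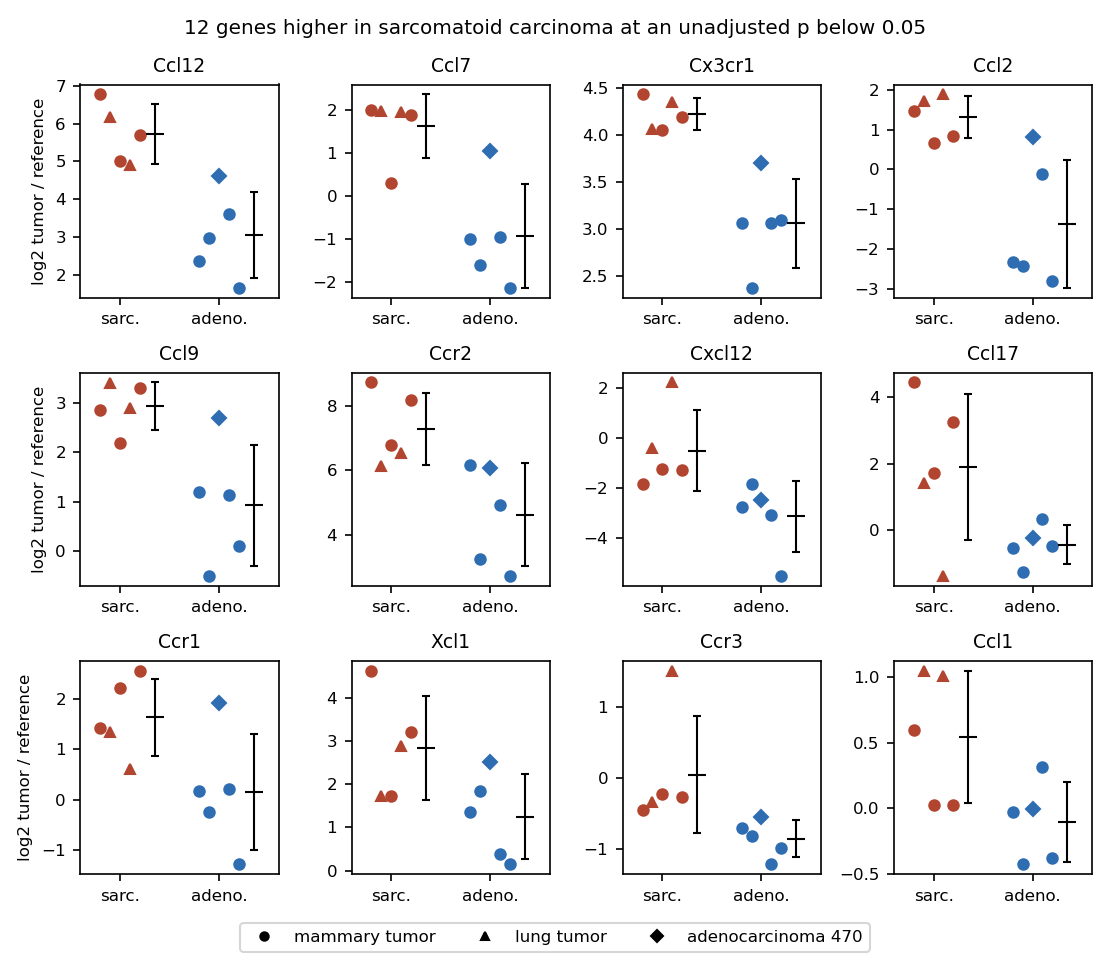
Log2 ratio of tumor over reference for the 12 genes with an unadjusted p below 0.05, ordered by p, in 5 sarcomatoid tumors (red) and 5 adenocarcinomas (blue), with circles for mammary tumors, triangles for lung tumors, a diamond for adenocarcinoma 470, and the mean with bars of 1 SD beside each group. Adenocarcinoma 470 is the highest adenocarcinoma for Ccl12, Ccl7, Cx3cr1, Ccl2, Ccl9, Ccr1, Xcl1 and Ccr3.

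Ccl17, a dendritic cell product that draws Ccr4-bearing T cells, was 4.45, 1.44, 1.74, -1.39 and 3.27 in the sarcomatoid tumors and -0.53, -1.27, -0.24, 0.34 and -0.47 in the adenocarcinomas. Lung 307 was the lowest of all 10 tumors, while the other 4 sarcomatoid tumors were above every adenocarcinoma. The difference was 2.34 ± 0.86 (SE, limma adjusted p = 0.446, exact permutation p = 0.0556). Ccl22, the other ligand of Ccr4, was not above background, and Ccr4 was above background on 4 arrays, with -2.79 to -1.18 in the sarcomatoid tumors and -2.42 to -1.34 in the adenocarcinomas. Xcl1, a product of NK and CD8+ T cells, differed by 1.59 ± 0.60 (SE, limma adjusted p = 0.463, exact permutation p = 0.0556). From the scanner signals it differed by 0.61, where the unadjusted p was above 0.05. The highest Xcl1 value was 4.63 in tumor 323 and the lowest 0.14 in adenocarcinoma 85. Xcl1 was above background on 8 of 10 arrays and its reference on 0, so that these ratios rest on a dim reference. Its receptor Xcr1, found on cross-presenting dendritic cells, hardly varied (SD 0.18 over 10 tumors).

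Of the CXC ligands, Cxcl12 alone had an unadjusted p below 0.05. This stromal chemokine holds Cxcr4-bearing cells in the bone marrow and other tissues. Its log2 ratio, from a probe on chromosome 6 (mm7, 117207552 to 117207611), was -1.85, -0.38, -1.25, 2.24 and -1.27 in the sarcomatoid tumors and -2.76, -1.84, -2.47, -3.08 and -5.54 in the adenocarcinomas. The highest adenocarcinoma (131) was level with the lowest sarcomatoid tumor (323), and the difference was 2.63 ± 0.81 (SE, limma adjusted p = 0.387, exact permutation p = 0.0159). A second Cxcl12 probe separated the groups and gave 2.40. The receptor Cxcr4 had the opposite sign, -0.82 ± 0.40 (SE, limma adjusted p = 0.563), with -0.52 to 0.93 in the sarcomatoid tumors and -0.02 to 1.92 in the adenocarcinomas.

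The interferon-induced ligands of Cxcr3 had higher means in the sarcomatoid tumors but wide spreads. Cxcl9 ranged from 2.62 to 6.32 against 2.77 to 4.70, Cxcl10 from 0.61 to 4.27 against -1.38 to 3.75, and Cxcl11 from 0.75 to 4.39 against -0.53 to 2.23. Their differences were 1.07 ± 0.60, 1.57 ± 0.90 and 1.36 ± 0.69 (SE), with exact permutation p-values of 0.167, 0.190 and 0.143. Cxcr3 itself differed by 0.55 ± 0.70 (SE). Cxcl16, a membrane-bound ligand of macrophages, differed by 0.85 ± 0.44, and Cxcr6, its receptor on T and NK cells, by 1.13 ± 1.15 (SE), with values from -1.80 to 4.31 within the sarcomatoid group. Cxcl13, which draws B cells, ranged from 1.23 to 5.03 and from -0.53 to 3.94 in the 2 groups, and its receptor Cxcr5 differed by 0.38 ± 0.77 (SE).

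The groups overlapped for each of the neutrophil attractants. Cxcl1 differed by 0.06 ± 0.99, Cxcl2 by 0.97 ± 0.70 and Cxcl5 by 1.12 ± 1.11 (SE). Cxcl5 had one of the widest spreads of the members, from -5.29 in adenocarcinoma 17 to 0.39 in tumor 323, and adenocarcinoma 470 had the highest Cxcl1 value of all tumors (0.65). The platelet chemokine Cxcl4 was also highest in adenocarcinoma 470 (1.94) and lowest in adenocarcinoma 85 (-2.72), and its difference was 1.34 ± 0.94 (SE). Cxcl7, the other platelet chemokine, was highest in adenocarcinoma 470 as well (3.85). Cxcl15 was at 4.92 in adenocarcinoma 85 and at most 1.25 in any other tumor.

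The members with a lower mean in sarcomatoid carcinoma were Ccl20, Ccl19, Cxcr4, Ccl21c, Ccl22, Ccr6, Ccr4, Cxcl15 and Ccr8. Ccl20, an epithelial ligand of Ccr6, was 0.84, -1.19, 0.27, -0.09 and -0.16 in the sarcomatoid tumors and 1.98, 0.46, -0.63, 5.09 and 1.40 in the adenocarcinomas. Adenocarcinoma 17 was far above all others, adenocarcinoma 470 was among the lowest, and the difference was -1.73 ± 0.86 (SE, limma adjusted p = 0.570, exact permutation p = 0.0952). Ccr6 differed by -0.26 ± 0.39 (SE), with adenocarcinoma 105 at 1.98 and no other tumor above 0.43. Ccl19 and Ccl21c, lymph node chemokines that act on Ccr7, were highest in adenocarcinoma 105 (5.39) and adenocarcinoma 470 (3.97), with differences of -1.46 ± 1.10 and -0.74 ± 1.04 (SE). Both have near-identical copies in the mouse genome and their probes were placed on unassigned sequence, so the copy that was measured is uncertain.

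Without adenocarcinoma 470, several ligands of the monocyte group and Cx3cr1 had an adjusted p below 0.05. This tumor was singled out in these data, because its epithelial markers were near those of the lung tumors. Leaving out an adenocarcinoma whose values lie near the other group can widen the difference, so the fit is not an independent test. In that fit 618 of all probes (1.54%) had an adjusted p below 0.05 and 5 of the 50 members did, all higher in sarcomatoid carcinoma. Ccl7 rose by 3.06 ± 0.42 (SE, adjusted p = 0.0162 in limma), Ccl12 by 3.06 ± 0.48 (adjusted p = 0.0199), Ccl2 by 3.23 ± 0.52 (adjusted p = 0.0215), Ccl9 by 2.44 ± 0.41 (adjusted p = 0.0230) and Cx3cr1 by 1.32 ± 0.26 (adjusted p = 0.0345). Over the 20 alternatives tried, the adjusted p of these 5 genes reached 0.676 and was below 0.05 only in this one, while the unadjusted p was below 0.05 in all 20. Ccr1 (1.91) and Ccr2 (3.02) had adjusted p-values of 0.0631 and 0.0737 in limma without that tumor. At an unadjusted p below 0.05 there were 18 higher members (7.46% of all probes) and 1 lower one (6.72%), Ccl20, at -2.30. Groups did not overlap for 8 members (3.48% of all probes), among them Ccl2, Ccl7, Ccl9, Ccl12, Ccr1, Ccr3 and Cx3cr1. Of the 12 members above, 6 had adenocarcinoma 470 above their lowest sarcomatoid tumor.

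The scan protocols did not hold the same groups, and tumor 323 was alone in one of them. All 12 members were higher in the sarcomatoid tumors within both protocols that held the 2 types. These members had been selected as higher over the same arrays, so that the shared sign is not an independent test. The differences were 0.04 (Ccl1) to 2.89 (Ccl17) among tumors 307, 594, 105 and 470, and 0.49 (Ccl17) to 4.41 (Cxcl12) among the 2 lung tumors and adenocarcinomas 131, 17 and 85. For Ccl2 these were 1.51 and 3.59, for Ccl12 1.86 and 2.80, and for Ccr2 1.36 and 2.72. With the protocol as a term of the fit, 10 members were higher (5.1% of all probes) and 2 lower at an unadjusted p below 0.05, the lower ones being Ccl19 (-1.49) and Ccr4 (-0.48), where 4.31% of all probes were lower. With 1 value per tumor of origin, Ccl7, Ccr3 and Cx3cr1 had an exact permutation p of 0.0179, the smallest for 3 against 5 tumors, and Ccl2, Ccl12, Ccl17, Ccr2 and Cxcl12 one of 0.0357. For Ccl9 and Xcl1 it was 0.0714, for Ccl1 0.0893 and for Ccr1 0.107.

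Most macrophage markers moved with these genes. Of 13 macrophage and monocyte markers (Adgre1, Csf1r, Cd68, Lyz2, Mrc1 and others), all 13 had a higher mean in the sarcomatoid tumors. An unadjusted p below 0.05 was reached by 9, and an adjusted p below 0.05 by 0. At the unadjusted threshold, 4.98% of all probes were higher and 4.25% were lower. The markers that did not reach it were Cd14 (0.14), C1qc (0.16), C1qa (0.24) and C1qb (0.64). The mean over the 13 markers was 3.26 to 3.92 in the sarcomatoid tumors, 3.49 in adenocarcinoma 470 and 1.32 to 2.56 in the other adenocarcinomas. All 13 were above background on every array. The part of macrophage content in the differences of Ccl2, Ccl7, Ccl12, Ccl9, Ccr1, Ccr2 and Cx3cr1 was not tested. The neutrophil list did not move in this way, at 2.35 to 2.96 and 2.20 to 3.05 in the 2 groups. Of 10 epithelial markers, 0 had a higher mean in the sarcomatoid tumors and 4 were lower at an unadjusted p below 0.05, and all 9 fibroblast markers had a higher mean, with none at an unadjusted p below 0.05. The B cell and endothelial lists also held no gene at an unadjusted p below 0.05. Of the 16 T and NK cell markers, 12 had a higher mean in the sarcomatoid tumors and 3 were higher at an unadjusted p below 0.05 (Nkg7, Gzmb and Klrb1c), with a list mean of 0.11 to 1.35 against -0.46 to 1.15 in the adenocarcinomas. Of 6 dendritic cell markers, 3 had a higher mean and 2 (Cd207 and Ly75) an unadjusted p below 0.05, with a list mean of 0.40 to 1.41 against -0.25 to 0.82. The part of these cells in the differences of Xcl1 and Ccl17 was not tested.

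Downstream of the receptors, 17 signalling genes were compared. At an unadjusted p below 0.05, 5 were higher in sarcomatoid carcinoma, where 4.98% of all probes were, and 1 was lower, where 4.25% were. None had an adjusted p below 0.05. The 5 were Arrb2 (1.42), an arrestin, and the leukocyte genes Pik3cg (1.49), Pik3r5 (1.19), Dock2 (1.21) and Rac2 (1.11), which carry chemokine signals to the cytoskeleton, and the lower one was Stat3 (-1.28). Of 19 inducers of chemokine genes, the receptors Tlr2 (1.003) and Tlr4 (1.59) and the factor Irf1 (0.67) were higher at an unadjusted p below 0.05. None was lower at this threshold, and no inducer had an adjusted p below 0.05. The cytokines Tnf (-0.05 ± 0.36) and Il1b (0.70 ± 0.87) did not pass (SE). Of 11 chemokine receptors and related genes outside the naming rule, among them the decoy receptors Ackr1 to Ackr4, none had an unadjusted p below 0.05.

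Within the sarcomatoid group, the 2 lung tumors were then compared with the 3 mammary tumors. The lung tumors had grown from injected cell lines in host mice, and the mammary tumors had not. Site, cell culture and host therefore cannot be told apart in this comparison. Receptors of T cells and dendritic cells and several ligands had lower means in the lung tumors, at an unadjusted p below 0.05 only. The 3 ligands of Ccr2 did not reach that threshold. With scan protocol as a term of the fit, 0 members were lower at it, where 3.08% of all probes were. Ccl17 was lower by 8.75-fold and Cxcl12 was 5.23-fold higher. Cxcr6 and Ccr7 were lower by 15.9-fold and 8.23-fold, but each was well above background on only 1 of the 2 lung arrays (Cxcr6 on lung 307, Ccr7 on lung 323). No member had an adjusted p below 0.05 (lowest 0.299) in limma, while 10 probes of all did. At an unadjusted p below 0.05, 6 members were lower (5.1% of all probes) and 2 were higher (5.59%). Of the 50 members, 36 had a lower mean in the lung tumors, with a median difference of -0.66 against 0.03 for all probes. In both tumor numbers, 26 members were lower in the lung tumor than in the mammary tumor it came from (30.7% of all probes) and 10 were higher (30.6%).

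**Figure D4:**
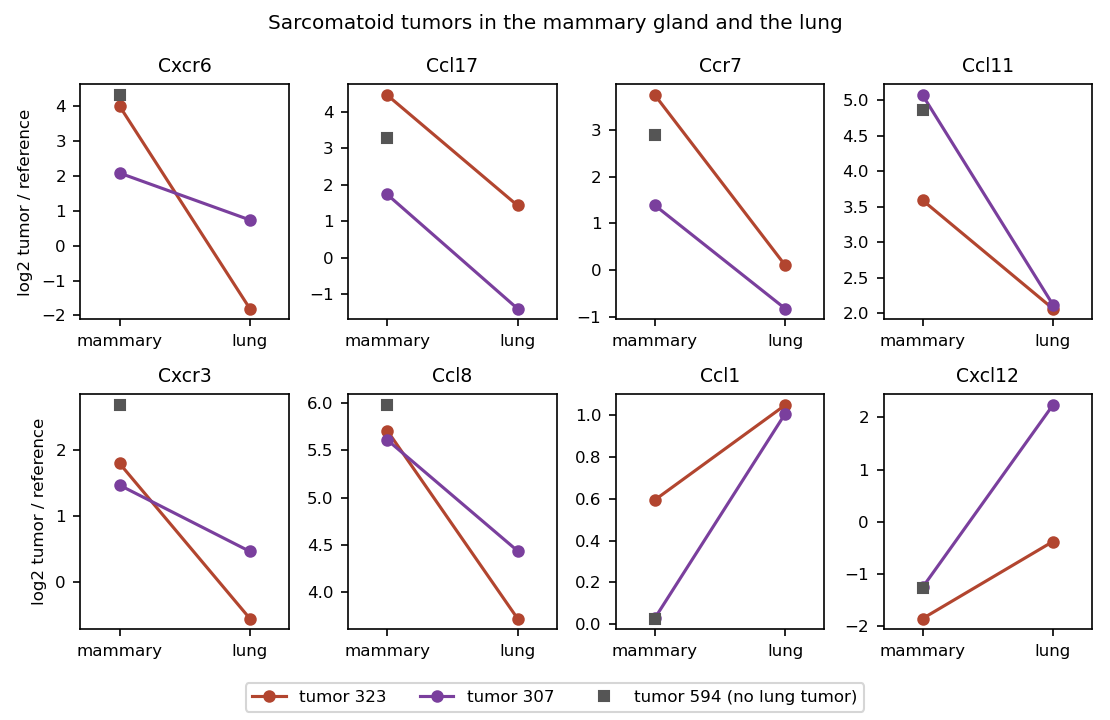
Log2 ratio of tumor over reference for the 8 genes with an unadjusted p below 0.05 between lung and mammary sarcomatoid tumors, with lines from the mammary tumor to the lung tumor of the same number (323 in red, 307 in purple) and a square for mammary tumor 594, which had no lung tumor. Cxcr6, Ccl17, Ccr7, Ccl11, Cxcr3 and Ccl8 go down and Ccl1 and Cxcl12 go up in both lines.

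Cxcr6 was 3.995, 2.08 and 4.31 in mammary tumors 323, 307 and 594 and -1.80 and 0.74 in lung 323 and lung 307, a difference of -3.99 ± 1.24 (SE, limma adjusted p = 0.331). Ccl17 was 4.45, 1.74 and 3.27 in the mammary tumors and 1.44 and -1.39 in the lung tumors. It was lower by nearly the same amount in both tumor numbers, -3.02 for 323 and -3.12 for 307. Ccr7, which takes dendritic cells and T cells to lymph nodes, was 3.75, 1.38 and 2.89 against 0.10 and -0.83, a difference of -3.04 ± 0.88 (SE, limma adjusted p = 0.308). Both lung tumors were below all 3 mammary tumors for each of these genes.

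Ccl11 and Ccl8, ligands for eosinophils and monocytes in the same cluster as Ccl2, were lower by -2.41 ± 0.93 and -1.68 ± 0.68 (SE). Ccl11 was at 2.06 and 2.12 in the lung tumors and between 3.59 and 5.07 in the mammary tumors. Cxcr3 was -0.56 and 0.46 in the lung tumors and 1.47 to 2.69 in the mammary tumors, a difference of -2.04 ± 0.85 (SE). Its ligands did not move alike in the 2 tumor numbers. Cxcl9, Cxcl10 and Cxcl11 were lower in lung 323 than in tumor 323, by -3.71, -2.73 and -1.91, and higher in lung 307 than in tumor 307, by 0.56, 1.61 and 1.78. Ccl5 showed the same split, at -2.81 and 2.30.

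Cxcl12 was -0.38 and 2.24 in the lung tumors and between -1.85 and -1.25 in the mammary tumors, a difference of 2.39 ± 0.99 (SE, limma adjusted p = 0.438). The second Cxcl12 probe did not show it. That probe read -1.07 in lung 323 and -0.55 in lung 307, against -1.32 to -0.79 in the mammary tumors (limma adjusted p = 0.968). Ccl1 was higher by 0.81 ± 0.35 (SE), at a level near background. The Ccr2 ligands Ccl2 and Ccl7 differed by 0.82 ± 0.95 and 0.58 ± 0.82 and Ccl12 by -0.28 ± 0.81 (SE). Ccr2 was -1.56 ± 1.01 (SE) on the brighter probe, while the other probe read 3.54 and 3.42 in the lung tumors and 5.30 to 6.08 in the mammary tumors (limma adjusted p = 0.331).

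T cell and epithelial markers moved with the receptors in the lung tumors. All 10 epithelial markers had a lower mean there, with a median difference of -3.40 and 5 at an unadjusted p below 0.05. Of 16 T and NK cell markers, 11 had a lower mean in the lung tumors. At an unadjusted p below 0.05, 5 were lower (Cd3d, Cd3g, Cd8a, Cd8b1 and Cd2) and 1 higher (Ncr1, an NK cell receptor). Of all probes, 5.1% were lower and 5.59% higher at this threshold. Of the 5, Cd3d and Cd8b1 were each above background on only 1 lung array and Cd8a on 0. Among the markers with a higher mean in the lung tumors were Gzma (2.08) and Prf1 (1.52), which did not pass. The list mean was 0.11 and 0.39 in the lung tumors and 0.84 to 1.35 in the mammary tumors, and 12 of the 16 markers were above background on both lung arrays. Of 6 dendritic cell markers, 4 had a lower mean in the lung tumors, and Itgax (-2.54) and Clec9a had an unadjusted p below 0.05, the latter above background on neither lung array. The list mean was 0.40 and 0.68 in the lung tumors against 0.58 to 1.41. The macrophage list mean was 3.35 and 3.46 in the lung tumors against 3.26 to 3.92, with none of its 13 markers at an unadjusted p below 0.05. The part of immune or epithelial cell content in the differences of Cxcr6, Cxcr3, Ccr7 and Ccl17 was not tested. Of the 7 markers of lung epithelium, 2 were above background on both lung arrays, and the list mean was -0.13 and 0.82 there against 0.06 to 0.73 in the mammary tumors.

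Lung and mammary sarcomatoid tumors never shared a scan protocol, and the 2 could be set apart only through adenocarcinomas of the same protocol. Tumor 323 was alone in its protocol, so the protocol term took up its values and it did not enter this difference. The fit set the 2 lung tumors against adenocarcinomas 131, 17 and 85, and tumors 307 and 594 against adenocarcinomas 105 and 470. With the protocol as a term, 0 members were lower (3.08% of all probes) and 4 were higher (3.36%), namely Ccl1, Ccl7, Cxcl13 and Cxcl14, and 22 of the 50 members turned in sign. Among these were Ccl8, Cxcr3, Ccr2 (1.36), Cxcl5 (2.52), Cxcl10 (1.14), Ccl12 (0.94) and Cxcl9 (0.14), while Cxcr6, Ccl17, Ccr7 and Ccl11 stayed below 0 at -0.69, -2.39, -0.50 and -0.52. With the tumor number as a block, 9 members were lower (6.69% of all probes) and 2 higher (6.59%), again with none at an adjusted p below 0.05. The 9 were Ccl8, Ccl11, Ccl17, Ccr4, Ccr7, Cxcl1, Cxcl5, Cxcr3 and Cxcr6. The count of lower members was 2 without lung 323 (3.9% of all probes) and 3 without tumor 594 (4.62%). The count of higher members was 0 without tumor 307 (5.0%), lung 307 (3.98%) or tumor 594 (4.6%), and 1 without adenocarcinoma 470 (5.76%), which entered only through the shared estimate of the spread.

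Many of these genes sit in clusters, and neighbours in a cluster did not all differ alike. In the cluster of 6 CC ligands on chromosome 11 (mm7, 82118723 to 82258468), 4 genes had an unadjusted p below 0.05 between tumor types. Ccl2, Ccl7 and Ccl12 differed by 2.56 to 2.69, while Ccl11, which lies between Ccl7 and Ccl12, differed by 0.30 and Ccl8 by 0.39. In the next cluster (83595699 to 83734514), Ccl9 differed by 2.001 and Ccl5, Ccl6, Ccl3 and Ccl4 by 0.54 to 1.15. In the receptor cluster on chromosome 9 (123499521 to 123827194), Ccr1, Ccr3 and Ccr2 differed by 0.90 to 2.65 and Ccr9, Cxcr6 and Xcr1 by 0.12 to 1.13. Neither the 6 CXC ligands on chromosome 5 (90732453 to 90894807) nor the 3 ligands of Cxcr3 further along (92310412 to 92348495) held a gene with an unadjusted p below 0.05. Differences between neighbouring genes were not tested.

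**Figure D5:**
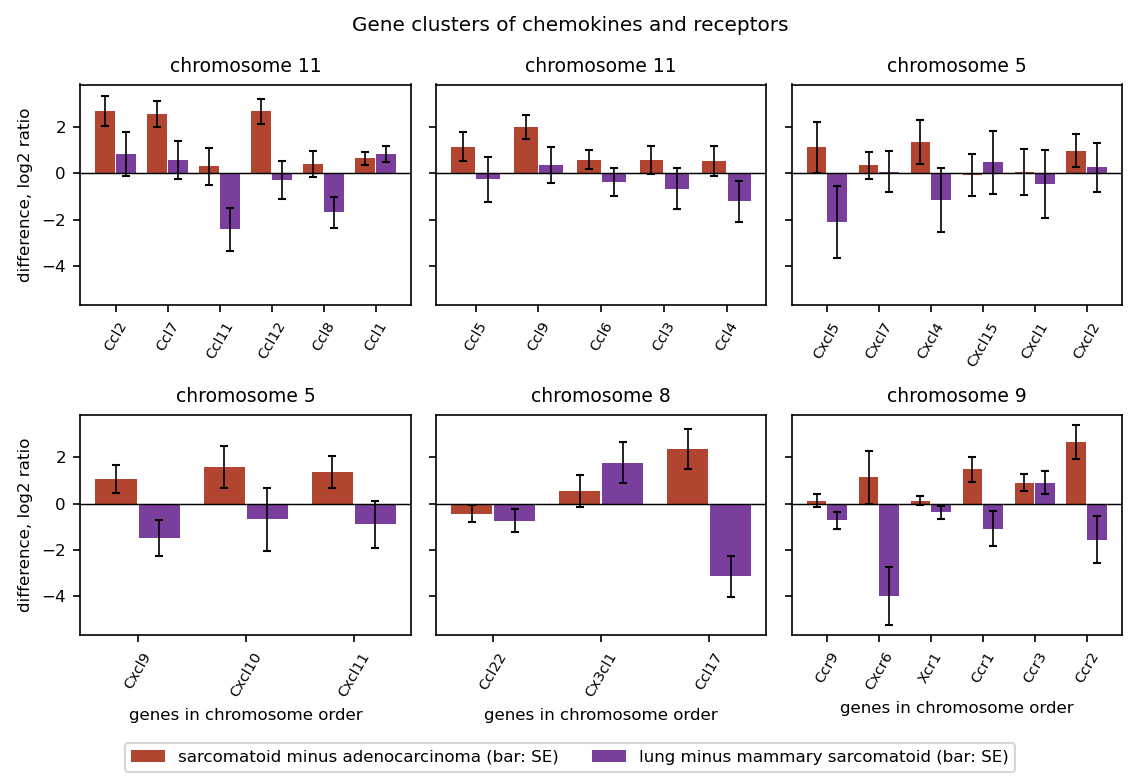
Difference in mean log2 ratio for genes of 6 clusters in chromosome order, sarcomatoid minus adenocarcinoma (red, 5 against 5 tumors) and lung minus mammary sarcomatoid tumors (purple, 2 against 3), with bars of 1 standard error. On chromosome 11 the red bars of Ccl2, Ccl7 and Ccl12 stand above those of Ccl11 and Ccl8, whose purple bars go down to -2.41 and -1.68.

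By tumor, the mean log2 ratio over the 50 members was highest in tumor 323 (1.84), tumor 594 (1.63) and adenocarcinoma 470 (1.54), and lowest in adenocarcinomas 131 (0.00099) and 85 (-0.02). Tumor 323 held the highest value of 15 members, among them Ccl12, Ccl17, Ccr2, Ccr7, Cxcl9 and Xcl1. Adenocarcinoma 470 held the highest value of 10, among them Ccl3, Ccl4, Ccl11, Cxcl1, Cxcl4 and Cxcl7. Lung 307 held 7, including Ccl2, Ccl5, Cxcl10, Cxcl12 and Cxcl13. Adenocarcinoma 85 held the lowest value of 16 members and was also the array with the fewest probes above background in the tumor channel (52.2%, against up to 83.0%).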

How the data were processed

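RNA of 10 mouse tumors was measured on 2-colour Agilent arrays, 1 array per tumor. The authors deposited scanner files of Feature Extraction (versions 10.7.3.1, 11.0.1.1 and 11.5.1.1) with the intensity of both channels and a log10 ratio per spot, and 1 table of log2 ratios normalized with limma, whose normalization method is not given in the sources used here. The deposited log2 ratios were used as they stood, and each column matched the red over green ratio of its own array (r of 0.868 to 0.926 across probes). Intensity served to choose probes, to call signal above background and for an alternative with normexp (offset 50) and loess. Groups were compared with limma 3.58.1 in R 4.3.3 over 40196 probes, with Benjamini-Hochberg adjustment at 0.05, and single members with exact permutation tests. The fit was tested on simulated data. Lung and mammary tumors were compared in a fit with 3 groups. Other tables were made with Python 3.11.15. Genes named in the text were those with an unadjusted p below 0.05 or groups that did not overlap, textbook ligand and receptor pairs, and the 5 with the highest SD among those above background on all arrays, and other members were named after their values had been seen. The members and lists were chosen with earlier results of these data known. Alternatives left out 1 tumor at a time, changed normalization, filter or probe rule, or added scan protocol, slide or tumor number. The number of arrays limits the precision. One member entered the counts but is not reported here.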

Additional observations from a re-analysis of the deposited data

Results flagged for a closer look

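In 60 sets of 5 tumors (30 named genes in 2 groups), 3 values lay far from the rest of their group, and about 3 would be flagged by chance. Ccl7 in mammary tumor 307 was at 0.30, below 1.88 to 2.01 in the other 4 sarcomatoid tumors. Ccr3 in lung 307 was at 1.52, above -0.45 to -0.21 in the other 4. Ccr6 in adenocarcinoma 105 was at 1.98, above -0.27 to 0.29 in the other 4 adenocarcinomas.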

How the results depend on the processing

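Between the tumor types, the count of higher members (12) stayed within 1.5 times under every alternative and was 9 to 18 when each tumor was left out in turn. The count of lower members (0) was 2 with scan protocol as a term and 0 to 1 when each tumor was left out. The count of members whose groups did not overlap (3) can only stay or grow when a tumor is left out and was 3 to 8. It was 5 without lung 323, 6 without tumor 307, 8 without adenocarcinoma 470 and 5 without adenocarcinoma 17. The share of all probes separated as higher also grew, from 0.866% with all tumors to 3.48% without adenocarcinoma 470. It was not computed for the other tumors left out, so the counts of 5 and 6 have no share to be set against. Between lung and mammary sarcomatoid tumors, the higher members (2) were 1 with normexp and loess from the scanner signals, 1 with dim probes left out, 4 with scan protocol as a term and 0 to 2 when each tumor was left out. The lower members (6) were 0 with scan protocol as a term, 2 to 7 when each tumor was left out and 9 with tumor number as a replicate block. The pairing comes from the lung tumors having been grown from the mammary tumors of the same number, and the block changed no call at an adjusted p. With scan protocol as a term, Ccl8 reversed to 0.052 and Cxcr3 to 0.23, and the cause was not tested. No member passed the adjusted threshold with all tumors, and 5 did without adenocarcinoma 470, which was singled out in these data. At an unadjusted p below 0.05, Ccl1 kept its call in 7 of 19 alternatives, Ccr3 and Xcl1 in 15 of 20, Ccr1 in 17, Ccl17 in 19 and the other 7 members in all 20. Members near background (among them Ccl1, Ccl22, Ccr1, Ccr3, Ccr4, Ccr8, Ccr10 and Cxcl15) were limited by signal.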
